A study of Rattus norvegicus with 22 samples.

Results

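The genes described here are Ucn2 (ENSRNOG00000020655) and Calcb (ENSRNOG00000011074), 2 neuropeptide genes with higher counts in injured than in sham rat cortex, out of the 32545 gene identifiers counted. They were chosen from a list of genes that differed between PBBI and sham in the hemisphere ipsilateral to injury, so their ipsilateral values, and comparisons that use them, are a description and carry no test. Calca (ENSRNOG00000011130), the paralog of Calcb, was not a member and is given beside it because the messages of the pair are alike in sequence.

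PBBI (penetrating ballistic brain injury) models a bullet wound with a probe whose balloon opens a cavity in the right frontal lobe. Cortical tissue was taken 24 h later from the injured side and the opposite side of 11 adult male Sprague-Dawley rats (written Sprague-Daley in the labels), 6 with PBBI and 5 with sham surgery, which gave 22 RNA-seq libraries in 4 groups. Sham rats underwent the same steps except that no probe entered the brain, and rats of both groups carried implanted EEG/EMG electrodes, so electrodes and surgery are shared by all groups. Each rat gave 1 library per hemisphere, and rats are named below by the animal numbers in the labels.

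Ucn2 encodes urocortin 2, a peptide of the corticotropin-releasing factor (CRF) family that binds selectively to the CRF receptor encoded by Crhr2, and the family is best known for its part in stress, feeding and cardiovascular responses. Calcb encodes the beta form of calcitonin gene-related peptide (CGRP), a potent dilator of blood vessels that acts through the receptor Calcrl with its partner Ramp1. Calca yields calcitonin or the alpha form of CGRP by alternative splicing. CGRP is a classic product of sensory and motor neurons and is known for its role in pain and in the vessels of the meninges.

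In the RefSeq annotation of the GRCr8 assembly, Ucn2 lies on chromosome 8 from 118516111 to 118517660. Calcb and Calca lie near each other on chromosome 1, Calcb from 178399634 to 178404654 and Calca from 178312636 to 178317588. The authors counted reads on an older assembly, so these positions serve only to place the genes. The RefSeq promoter table held Ucn2 and Calca, and the bases upstream of each gene are shown because Ucn2 and Calca were both higher on the injured side. Capitals mark the letters that matched a searched motif, with chr8:118515861-118516110 on the plus strand for Ucn2 and chr1:178317589-178317779 on the minus strand for Calca, each written 5′ to 3′.
Ucn2: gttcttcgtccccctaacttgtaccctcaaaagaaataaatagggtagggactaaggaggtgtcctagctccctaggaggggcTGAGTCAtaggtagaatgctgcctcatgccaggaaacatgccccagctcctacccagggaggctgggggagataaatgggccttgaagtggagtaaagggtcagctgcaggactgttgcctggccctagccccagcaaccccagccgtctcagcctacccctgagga
Calca: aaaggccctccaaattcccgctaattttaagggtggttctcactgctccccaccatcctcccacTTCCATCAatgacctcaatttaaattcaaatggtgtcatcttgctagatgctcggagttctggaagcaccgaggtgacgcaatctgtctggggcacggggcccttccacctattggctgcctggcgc
The capitals in Ucn2 are the AP-1 letters TGAGTCA, which start 167 bases before the start site. The capitals in Calca are TTCCATCA, the reverse strand of the C/EBP-ATF letters, and start 186 bases before the start site used in the promoter table, which lies 59 bases inside the gene's outer end. Each was the only match among 6 motifs searched on both strands in windows from 250 bases before to 50 bases after the start site. The motifs were AP-1 (TGANTCA), present in 7.33% of the 33469 promoter windows of all genes, C/EBP-ATF (TGATGNAA) in 3.98%, CRE (TGACGTCA) in 1.83%, STAT (TTCNNNGAA) in 8.87%, NF-kB in 1.30% and the E-box CACGTG in 6.42%. A match describes these letters only and does not show that a factor bound there.

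Ucn2 was close to absent from uninjured cortex and present in all 6 ipsilateral PBBI libraries. Its counts in ipsilateral PBBI cortex were 280 in rat 81, 28 in rat 83, 26 in rat 85, 126 in rat 88, 37 in rat 90 and 97 in rat 96. In ipsilateral sham cortex they were 2 in rat 82, 2 in rat 84 and 0 in rats 86, 91 and 94. The lowest injured library thus held 26 counts against at most 2 in sham, and the groups did not overlap. On the scale of CPM (TMM-normalized counts per 1000000 counts of a library, which adjusts for library size and composition), Ucn2 had a level of 1.51 ± 1.51 in ipsilateral PBBI (SD, n = 6) and 0.0150 ± 0.0205 in ipsilateral sham (SD, n = 5). All sham libraries were at or under 3 counts, about the upper 95% limit for a count of 0, so the fold is given as a bound against that floor. The limit is higher for the 2 counts of rats 82 and 84. Against a floor of 3 counts per sham library, the mean CPM was at least 26.0-fold higher in PBBI. Ucn2 counts above 0 were even in 10 of 13 libraries. If both reads of a pair were counted, which was not tested, the floor becomes 6 counts and the bound is 13.0-fold. These bounds cover counting error in sham only, not the spread of injured rats around their mean. Rat 81 carried much of that mean: without it the bound against 3 counts was 16.1-fold, and it was 29.8-fold without rat 83 and 29.2-fold without rat 85. The edgeR log2FC of Ucn2 was 6.46 ± 1.01 (SE), rank 12 of the 16104 genes fitted in that hemisphere. Ucn2 passed the filter on low counts only through its PBBI libraries, and this fitted value depends on the prior count because sham libraries were near 0. The fit used edgeR's small default prior count. With a prior count of 2, mean log2 CPM was 0.13 in ipsilateral PBBI and -4.44 in ipsilateral sham, which lie less far apart than 6.46.

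Calcb was present at a low level in every library and higher in injured cortex. Its ipsilateral PBBI counts were 1003 in rat 81, 84 in rat 83, 336 in rat 85, 603 in rat 88, 285 in rat 90 and 386 in rat 96. Ipsilateral sham counts were 20 in rat 82, 36 in rat 84, 38 in rat 86, 16 in rat 91 and 18 in rat 94. All 6 injured rats lay above all 5 sham rats, though rat 83 only just did, at 1.23 CPM against 1.02 in sham rat 86. The level of Calcb was 7.09 ± 4.98 CPM in ipsilateral PBBI (SD, n = 6) and 0.524 ± 0.323 in ipsilateral sham (SD, n = 5), a 13.5-fold ratio of means. That ratio was 10.2-fold without rat 81, 15.8-fold without rat 83 and 13.3-fold without rat 85. The edgeR log2FC of Calcb was 3.77 ± 0.64 (SE), rank 89 of 16104.

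Both members therefore had every injured rat above every sham rat, a pattern found in 3.52% of the genes fitted ipsilaterally. Of those genes, 753 (4.68%) passed an adjusted p of 0.05 in edgeR's quasi-likelihood test, 659 of them (4.09%) higher in PBBI, and the median log2FC over all genes was -0.019. The members were picked by this contrast, so nothing is read from their place in these counts.

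Calca, the alpha CGRP gene, followed Calcb in direction. Its ipsilateral PBBI counts were 2461 in rat 81, 280 in rat 83, 1210 in rat 85, 1700 in rat 88, 467 in rat 90 and 641 in rat 96, and its ipsilateral sham counts ranged from 52 to 111. The level was 18.3 ± 13.8 CPM in PBBI (SD, n = 6) and 1.74 ± 0.70 in sham (SD, n = 5), a 10.5-fold ratio of means with an edgeR log2FC of 3.39 ± 0.61 (SE). Calcb and Calca are near-identical over part of their sequence and the handling of reads that align to both was not stated, so the split of counts between them is uncertain. The number of Calca counts per Calcb count was 2.64 at the median of the ipsilateral PBBI libraries (range 1.64 to 3.60) and 3.25 in ipsilateral sham (range 2.28 to 6.17). These ranges overlapped. Per kb of the gene lengths given with the counts (888 bases for Ucn2, 961 for Calcb and 1306 for Calca), the ipsilateral PBBI levels were 1.70 ± 1.70 CPM per kb for Ucn2, 7.37 ± 5.18 for Calcb and 14.0 ± 10.6 for Calca (SD, n = 6). Ucn2 was the lowest of these genes in each injured rat.

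**Figure D1:**
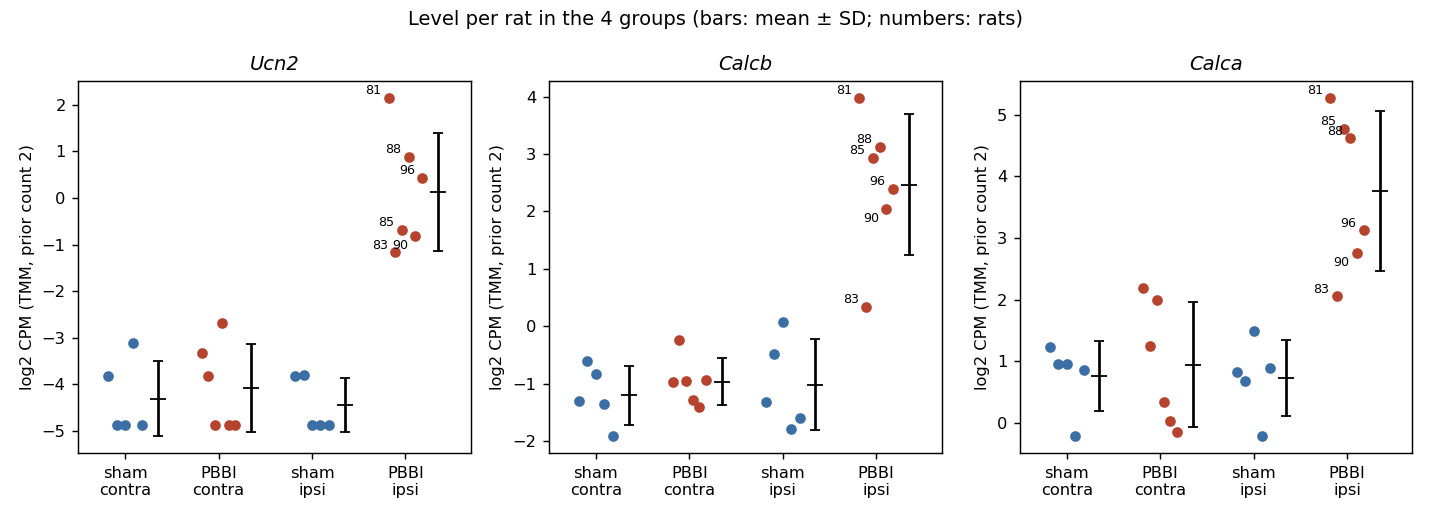
Level of Ucn2, Calcb and Calca in each library of the 4 groups, as log2 CPM after TMM normalization with a prior count of 2, with the mean and SD of each group as a bar beside the points and rat numbers at the ipsilateral PBBI points. All 6 ipsilateral PBBI points lie above all 5 ipsilateral sham points in each panel, rat 83 is the lowest of the 6 and rat 81 the highest in each panel, and the 3 other groups overlap.

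The contralateral hemisphere, which played no part in the choice of the genes, was used to ask whether they also differed on the side away from the injury. Neither member did so detectably. Contralateral Ucn2 counts in PBBI were 4 in rat 81, 2 in rat 83, 8 in rat 88 and 0 in rats 85, 90 and 96. In sham they were 2 in rat 82, 5 in rat 91 and 0 in rats 84, 86 and 94. The groups overlapped, and 4 of 6 PBBI and 4 of 5 sham libraries were at or under 3 counts, so no fold is given. Ucn2 was below the filter on low counts here, and its log2 CPM was on average 0.23 higher in PBBI (exact permutation of the treatment among the 11 rats, two-sided, p = 0.719), a difference that was -0.037 without PBBI rat 88. A difference between counts this low was not detectable at this depth.

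Contralateral Calcb counts were 29 in rat 81, 44 in rat 83, 28 in rat 85, 25 in rat 88, 20 in rat 90 and 28 in rat 96 after PBBI. In sham they were 20 in rat 82, 38 in rat 84, 29 in rat 86, 22 in rat 91 and 10 in rat 94. Rat 83, which had the lowest Calcb on the injured side, had the highest on the other side, and the groups overlapped. The level of Calcb was 0.497 ± 0.168 CPM in contralateral PBBI (SD, n = 6) and 0.421 ± 0.154 in contralateral sham (SD, n = 5). The log2FC was 0.22 ± 0.339 (SE), with a 95% interval from -0.50 to 0.95 and an adjusted p of 1.0 (edgeR, Benjamini-Hochberg). The exact permutation test on log2 CPM gave p = 0.439. This interval leaves out a change of the size seen ipsilaterally, but not small changes in either direction, with a log2FC between -0.50 and 0.95.

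Contralateral Calca spread more widely among injured rats, with 277 counts in rat 81 and 229 in rat 85 against 50 to 126 in the other PBBI rats and 51 to 125 in sham. Rats 81 and 85 also had the highest ipsilateral Calca levels after TMM normalization, at 38.6 and 27.3 CPM. Before it, rat 88 had more ipsilateral Calca counts (1700) than rat 85 (1210). The contralateral log2FC of Calca was 0.41 ± 0.457 (SE), with a 95% interval from -0.57 to 1.39 and an adjusted p of 1.0 (edgeR). Of the 15907 genes tested contralaterally, 0 (0%) passed the threshold in edgeR, against 3 in DESeq2 and 1 in voom, and 366 had an unadjusted p under 0.05. Contralaterally, all 6 PBBI rats lay above all 5 sham rats for 0.101% of genes, and neither member nor Calca was among them.

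Because both hemispheres came from the same rats, each injured side could be set beside its own uninjured side. Ucn2, Calcb and Calca were each higher ipsilaterally in 6 of 6 PBBI rats, a pattern found in 11.2% of the genes fitted within PBBI. For Ucn2 the ipsilateral minus contralateral difference in log2 CPM averaged 4.20 ± 1.07 (SD, n = 6), from 2.64 in rat 83 to 5.48 in rat 81. Contralateral Ucn2 was at 0 counts in 3 of these rats, so the size of their differences is set by the prior count, and the edgeR log2FC between the hemispheres was 5.23. For Calcb it averaged 3.43 ± 1.53 (SD, n = 6), from 0.58 in rat 83 to 4.96 in rat 81. In CPM the ipsilateral side of rat 83 held 1.51 times as much Calcb as its contralateral side, whereas the ratio was 33.2 in rat 81, 15.7 in rat 85, 23.0 in rat 88, 11.9 in rat 90 and 10.7 in rat 96. Rat 83 thus lay apart from the other injured rats in Calcb. For Calca the difference averaged 2.82 ± 1.13 (SD, n = 6) and was again lowest in rat 83, at 0.81.

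Sham rats had no shared direction. Ucn2 was higher ipsilaterally in 1 of 5 sham rats, Calcb in 3 of 5 and Calca in 2 of 5, and 1.75% of the genes fitted within sham were higher ipsilaterally in every rat. For Ucn2, rat 82 had 2 counts on each side and rats 86 and 94 had 0 on each side, so these rats gave no direction. The log2 CPM difference averaged -0.14 ± 1.02 for Ucn2, 0.18 ± 0.49 for Calcb and -0.026 ± 0.37 for Calca (SD, n = 5). The 4 group means of Calcb were 7.09 CPM in ipsilateral PBBI, 0.524 in ipsilateral sham, 0.497 in contralateral PBBI and 0.421 in contralateral sham, and the last 3 lay within the SD of their neighbours in that order. For Ucn2 the order was ipsilateral PBBI (1.51 CPM), contralateral PBBI (0.0372), contralateral sham (0.0236) and ipsilateral sham (0.0150), again with the last 3 within their SD.

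**Figure D2:**
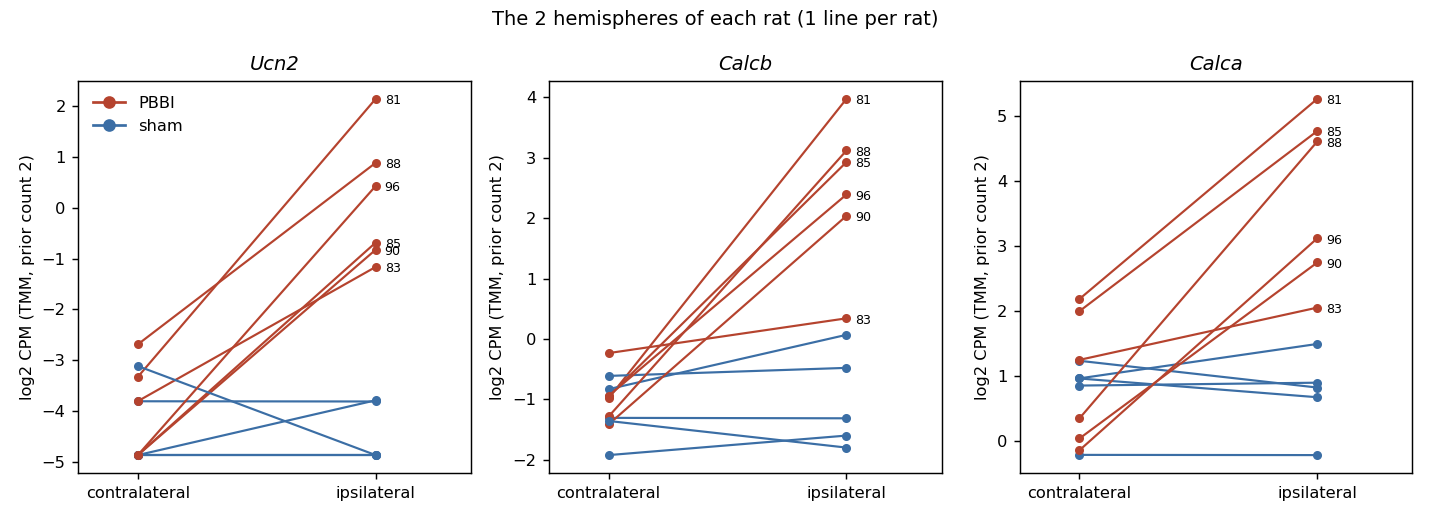
Log2 CPM (TMM, prior count 2) of Ucn2, Calcb and Calca in the contralateral and ipsilateral hemisphere of each rat, 1 line per rat, PBBI in red with rat numbers and sham in blue. Every PBBI line climbs toward the injured side, with Calcb in rat 83 the flattest at 0.58, while sham lines go either way.

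Levels varied among the injured rats, with an ipsilateral SD in log2 CPM of 1.26 for Ucn2, 1.23 for Calcb and 1.29 for Calca, against 0.58, 0.79 and 0.62 in sham. The sham SD of Ucn2 is set largely by the prior count, with 3 of 5 libraries at 0 counts and at most 2 counts in any. It therefore does not measure the spread among sham rats. Ucn2 ranged from 0.412 CPM in rat 83 to 4.39 in rat 81, Calcb from 1.23 to 15.7 and Calca from 4.12 to 38.6 in the same rats. Correlations of log2 CPM over the 6 ipsilateral PBBI libraries are given as a description with no test, since the members were chosen on these libraries, and 3 relations were computed. Calcb and Calca had Pearson's r = 0.927 and Spearman's rho = 0.943. Without rats 81 and 83, which lay farthest from the median, r was 0.964 over 4 rats, and the uncertain split of reads between the paralogs applies to this relation. Ucn2 and Calcb had r = 0.807 and rho = 0.943, and without rats 81 and 83 their r was 0.492 over 4 rats, so the linear relation rested on those rats. Ucn2 and Calca had r = 0.715 and rho = 0.829, and r was 0.244 without the same rats. Rat 85 was the exception to the shared order, with the next-to-highest Calca level, at 27.3 CPM, beside a Ucn2 level of 0.587 CPM. That rank in Calca rests on its TMM factor of 0.706, against 1.18 in rat 88. Rat 85 had 1210 Calca counts of 62672856 in total, and rat 88 had 1700 of 58846183.

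**Figure D3:**
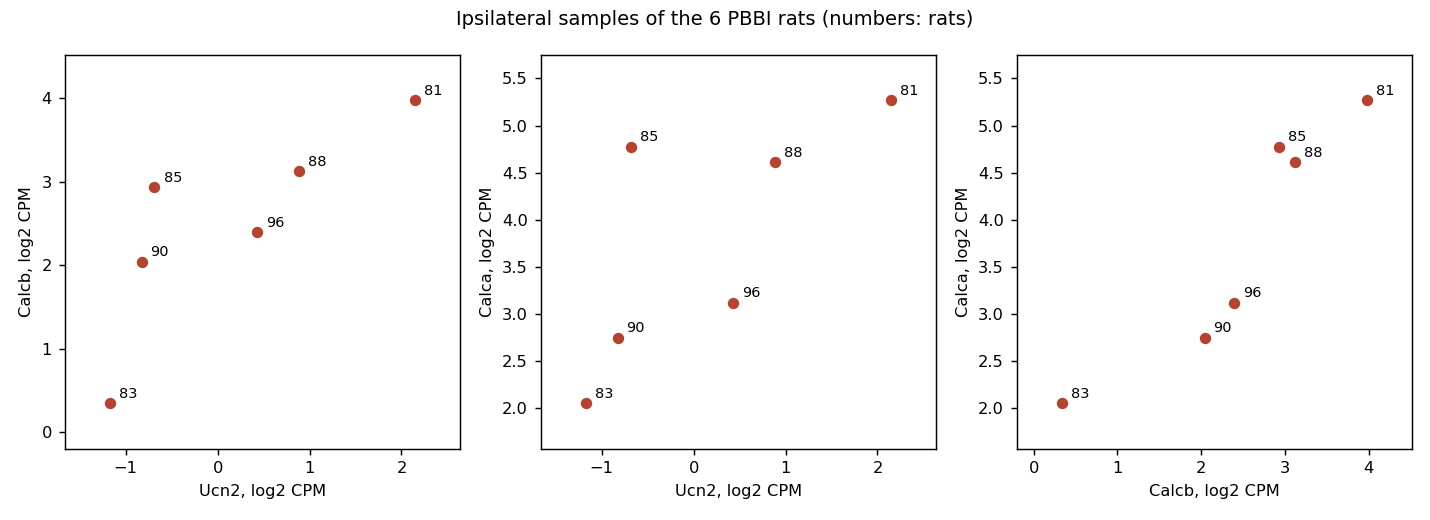
Ipsilateral log2 CPM of Calcb against Ucn2, Calca against Ucn2 and Calca against Calcb in the 6 PBBI rats, 1 point per rat with its number. Rat 81 is highest and rat 83 lowest on every axis, and rat 85 lies above rat 90 in Calcb and Calca although their Ucn2 levels are close.

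The ipsilateral PBBI library of rat 85 also stood apart as a whole. It had a mean correlation of 0.824 with the other libraries of its group, against 0.928 to 0.940 for the other 5. Its TMM factor was 0.706, against 1.07 to 1.21 for those 5, which raised its CPM relative to its total counts. By total counts alone, Ucn2 was lowest in rat 85 (26 of 62672856 counts) rather than rat 83 (28 of 63412426). Markers of neutrophils, summed over 7 of 7 listed genes including S100a8, S100a9 and Mmp9, ran from 20.3 to 252 CPM in ipsilateral PBBI and from 9.65 to 54.9 in ipsilateral sham. Their order among injured rats was close to that of the members at its ends, with 252 CPM in rat 81 and 20.3 in rat 83. Between these, the neutrophil sum was 195 CPM in rat 85, 131 in rat 96, 82.4 in rat 88 and 45.0 in rat 90. Monocyte and macrophage markers, 7 of 7 listed, also ran from 186 CPM in rat 83 to 966 in rat 81, against 90.8 to 233 in ipsilateral sham. In CPM, these leukocyte markers were lowest in the rat with the lowest Ucn2 and Calcb and highest in the rat with the highest. The microglial sum described below, which was mostly Tmem119, had the reverse order at these ends, at 27.6 CPM in rat 83 and 10.8 in rat 81. Neuronal markers were also highest in rat 83, at 1238 CPM. The part of any of these cells in the members' levels was not tested. Elane among the neutrophil markers and Ccr2 among the monocyte markers were near 0, with at most 31 and 28 counts in any ipsilateral PBBI library.

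Markers of cells that normally live in cortex moved in both directions. The 3 of 9 neuronal markers that could be named (Camk2n1, Chn1 and Mapt) summed to between 501 and 1238 CPM in ipsilateral PBBI and between 1478 and 1785 in ipsilateral sham, and every library of the 4 groups held them. In bulk tissue, fewer neurons and less RNA per neuron cannot be told apart. Astrocyte markers, 4 of 6 named, summed to between 2359 and 7265 CPM in ipsilateral PBBI and between 1172 and 2151 in sham. That sum followed Gfap, whose median was 4673 CPM in PBBI against 567.9 in sham, while the other 3 had lower medians in PBBI, at 503 against 893 for Aldoc, 7.73 against 12.8 for Aldh1l1 and 9.93 against 39.1 for Gjb6. The microglial markers, 2 of 5 named, summed to between 10.8 and 27.6 against between 26.3 and 41.6. That sum followed Tmem119, whose median was 15.6 CPM in PBBI against 29.2 in sham. Siglech went the other way and was near 0, at a median of 0.151 against 0, with at most 23 against 2 counts. Phox2a and Chrnb4 were the 2 of 12 listed markers of neurons outside the cortex that could be named. They summed to between 0.514 and 2.65 CPM in ipsilateral PBBI and between 0.114 and 0.285 in sham. In contralateral PBBI the sum had a median of 0.121 and reached 2.45. Phox2a was near 0, with at most 30 counts in any ipsilateral PBBI library. CGRP is a product of sensory and motor neurons, and the part of any of these cells in the Calcb and Calca counts was not tested.

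The genes whose level most resembled each member were taken from the named genes by Pearson's r of log2 CPM over the 22 libraries. This is a description, since ipsilateral PBBI libraries lie above all others for both members. The names also come mostly from genes called different ipsilaterally. For Ucn2 they were Hmox1, the heme-degrading enzyme heme oxygenase 1 (r = 0.961), the chemokine Ccl7 (r = 0.955), the mitotic spindle gene Dlgap5 (r = 0.940), LOC100910255 (r = 0.939) and the leukocyte antigen gene Ptprc (r = 0.936). For Calcb they were the protease inhibitor Tfpi2 (r = 0.959), the cell cycle phosphatase Cdkn3 (r = 0.949), the tetraspanin Cd63 (r = 0.949), the membrane protein Emp1 (r = 0.947) and the cytokine Il11 (r = 0.945). The lists of Ucn2 and Calcb shared no gene, whereas Cd63 was also among the 5 for Calca (r = 0.931). Within the 6 ipsilateral PBBI libraries alone, r was 0.857 for Ucn2 with Hmox1 and 0.863 for Calcb with Tfpi2.

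Other genes of peptide signaling were taken from lists of 129 peptides, receptors and peptide enzymes, of which 29 could be named. In the CRF family Ucn2 was the only 1 of 7 listed genes with a name, and in the calcitonin family Calca, Calcb and Adm were 3 of 11, so the receptors Crhr2 and Calcrl and the Ramp partners were not analysed here. Ipsilaterally, 25 of the 29 passed the filter on low counts, and their median log2FC was 0.99 against -0.019 over all genes. Without the members Ucn2 and Calcb, 5 of 23 were past the threshold and higher in PBBI, beside 4.09% of all genes. Another 2 of them were past it and lower, beside 94 of the 16104 genes fitted. Because names come mostly from genes called in this contrast, these counts describe the named genes only.

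Among the ligands, Adm, which encodes the vessel-dilating peptide adrenomedullin of the calcitonin family, had a median of 5.43 CPM in ipsilateral PBBI (range 2.29 to 12.5) and 1.08 in sham (range 0.777 to 1.30), with a log2FC of 2.66 ± 0.465 (SE). Gal, which encodes the neuropeptide galanin, had a median of 14.7 CPM (range 3.67 to 33.0) against 1.74 (range 1.55 to 1.98), with a log2FC of 3.26 ± 0.526. Trh, which encodes thyrotropin-releasing hormone, had a median of 169 CPM (range 37.6 to 325) against 4.52 (range 0.570 to 11.1), with a log2FC of 5.16 ± 0.882. As with the members, every injured rat lay above every sham rat for Adm, Gal and Trh. Pyy, which encodes peptide YY, was below the filter and had 6 to 81 counts in ipsilateral PBBI against 1 to 4 in sham. Nppb, which encodes brain natriuretic peptide, was also below it, with 0 to 139 counts against 0 to 2. Rln3, which encodes relaxin 3, was below it as well, with 0 to 27 counts against 0 to 3 and 4 of 6 injured rats above every sham rat.

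The other 4 fitted ligands did not pass the threshold. The endothelin gene Edn3 had a log2FC of -1.35 ± 0.523 (SE), with 5 of 6 injured rats below every sham rat. The log2FC was -0.73 ± 0.422 (SE) for the substance P gene Tac1, 0.76 ± 0.778 for Cartpt and 0.11 ± 0.678 for Nmb. Among receptors and enzymes, the peptide-cleaving aminopeptidase Anpep was the only 1 past the threshold and higher in PBBI, with a log2FC of 2.97 ± 0.651. The cholecystokinin receptor Cckbr (log2FC -1.47 ± 0.320) and the VIP receptor Vipr2 (log2FC -1.32 ± 0.309) were past it and lower, and every injured rat lay below every sham rat for both. Qrfpr and Mmel1 also had every injured rat below every sham rat, with log2FC of -1.70 ± 0.505 and -0.69 ± 0.271 that did not pass the threshold. The share of all genes with every injured rat below every sham rat was not computed, so nothing is read from this pattern.

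Contralaterally, 0 of the 24 peptide genes tested passed the threshold in edgeR, beside 0% of all genes tested, and 12 had a positive and 12 a negative log2FC, with a median of 0.0030 against -0.0059 over all genes. Cckbr was the only 1 of them with an unadjusted p under 0.05 in edgeR, beside 366 of all 15907 genes tested. Its contralateral log2FC was -0.61 ± 0.216 (SE), with an adjusted p of 1.0 (edgeR, Benjamini-Hochberg). DESeq2 and voom also gave 0 peptide genes past the threshold. Gal reached 967 counts in contralateral PBBI and 693 in contralateral sham, in 1 library of each, so its contralateral SE of 0.807 was wider than that of Calcb.

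**Figure D4:**
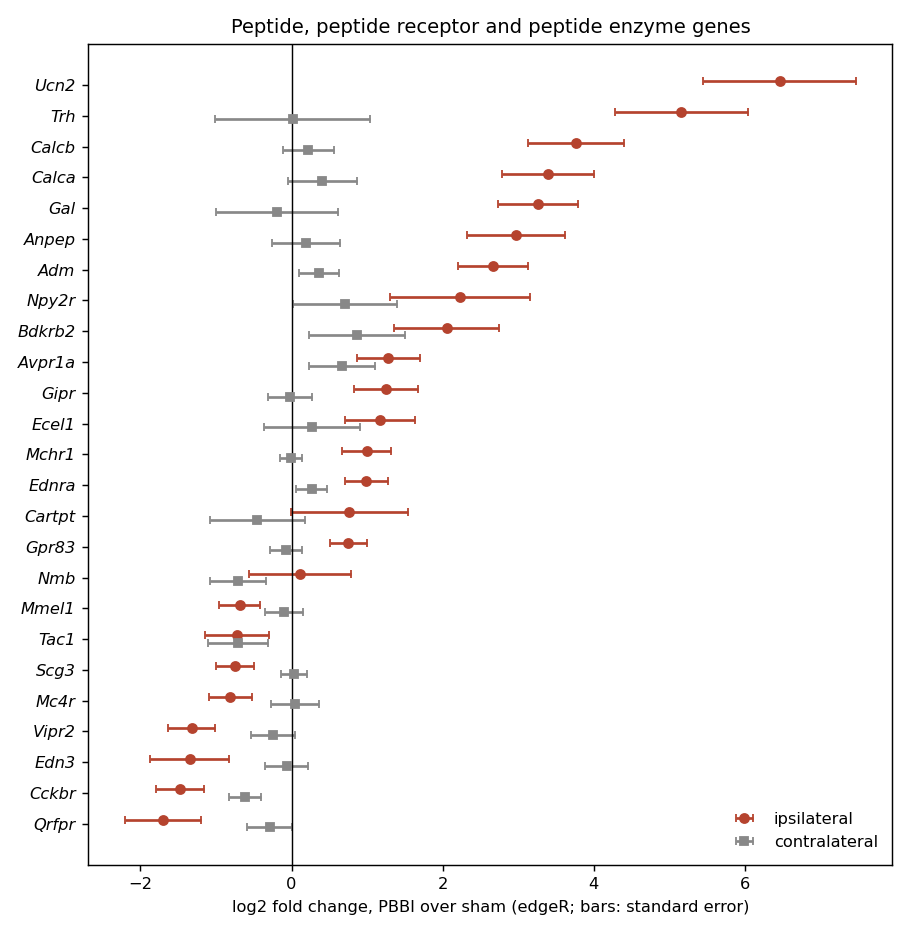
Log2 fold change of PBBI over sham for the 25 named peptide, receptor and peptide enzyme genes that passed the filter ipsilaterally, in the ipsilateral (red circles) and contralateral hemisphere (gray squares), with standard errors from edgeR as bars. Ucn2 has the highest ipsilateral value at 6.46 and no contralateral point because it was below the filter there, and the contralateral values of the other 24 lie between -0.71 and 0.86, with Calcb at 0.22.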

How the data were processed

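RNA-seq libraries of the ipsilateral and contralateral cortex of 6 PBBI and 5 sham rats were grouped by the treatment, hemisphere and animal number in the labels. The authors prepared stranded libraries after ribosomal RNA depletion, aligned reads with STAR 2.4.2a and counted them with featureCounts 1.4.3-p1 on Rnor 6.0, per the paper and the submitters' processing notes. The authors deposited raw counts per gene with no normalization, beside a gene length column. Settings for strand and for reads aligned to several places were not given in the sources used here. Total counts per library were 42085341 to 63412426, and the floor of 3 counts covers counting error only, while intervals of log2FC include the spread between rats. Even numbers made up 60.8% to 69.6% of the counts between 1 and 19 in each library, and 10 of the 13 Ucn2 counts above 0 were even, whose cause was not tested.

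Counts were tested with edgeR 4.0.16 (R 4.3.3, quasi-likelihood test, TMM, filterByExpr, Benjamini-Hochberg, threshold 0.05), separately per hemisphere, over all genes passing the filter. Standard errors were derived from the F statistic as log2FC over its square root, and log2 CPM used a prior count of 2. Single genes were also tested by exact permutation of the 11 rats contralaterally. Permutation p-values laid out for relations among ipsilateral PBBI libraries are not given, because the members were chosen on those libraries. The edgeR quasi-likelihood fit was tried on simulated counts. Alternatives were RLE size factors, DESeq2 1.42.0 without a prior, limma 3.58.1 voom with sample quality weights, other filters, a joint fit of 22 libraries, a rat block and leaving out each library. The study's own method was DESeq2. Libraries with the same number come from the same rat, and the correlation of their deviations from group means was 0.246 to 0.758 in the 11 rats.

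Gene names came from the paper's supplementary lists of called genes only, with 1818 identifiers named. Genes named are the members, Calca, the listed peptide genes that could be named and the 5 named genes most like each, plus markers of cell types the tissue could hold. The members and all lists were chosen with earlier results of these data known. Promoters and positions are from RefSeq (GRCr8), and 2 of the 3 genes had a promoter entry. Rats were operated on in weekly groups, which did not enter the fits. Sleep recordings were not used here. Library titles name PFC for both libraries of rat 81 and the contralateral library of rat 82, and CC or CI for the rest. Rat 81 thus gave the only ipsilateral PBBI library titled PFC. Titles of both libraries of rat 82 and the contralateral library of rat 83 carry further endings. Whether these marks stand for a difference in tissue or handling was not tested. Beyond these titles and the animal number, nothing says how far rats were handled separately.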

Additional observations from a re-analysis of the deposited data

Results flagged for a closer look

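In groups of 4 to 10 libraries, the highest or lowest value was marked where its gap to the nearest other value was large for the group's range. This was looked for in 12 groups (Ucn2, Calcb and Calca in 4 groups each), and 2 were marked. Chance marks about 1 in 20 where values are normally distributed, which CPM need not be. Log2 CPM was not looked at in this way. Ucn2 in the ipsilateral cortex of PBBI rat 81 was 4.39 CPM, against 1.81 in the next rat. Its gap was 0.648 of the range, above the critical value of 0.625 for 6 libraries. Calcb in the contralateral cortex of PBBI rat 83 was 0.817 CPM, against 0.487 in the next rat, a gap of 0.694 of the range. The same rat had the lowest ipsilateral Calcb of the injured rats, at 1.23 CPM. The cause was not tested.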

How the results depend on the processing

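Depth limits Ucn2 outside the injured side, where all 5 ipsilateral sham libraries, 4 of 6 contralateral PBBI libraries and 4 of 5 contralateral sham libraries held 3 counts or fewer. No value was obtained for contralateral Ucn2 with DESeq2, voom or a minimum of 10 counts, nor for Ucn2 between sham hemispheres, because it was below those filters. The contralateral Ucn2 difference in log2 CPM of 0.23 was -0.037 without PBBI rat 88 and between -0.037 and 0.53 over the 11 fits that each left out a library. It was 0.41 with a prior count of 0.5, and the edgeR log2FC was 0.59 both without a filter and with all 22 libraries fitted jointly. Contralateral log2FC turned negative under voom with sample quality weights, at -0.20 for Calcb and -0.36 for Calca, and the cause was not tested. Under every other alternative Calcb stayed between 0.035 and 0.43 and Calca between 0.10 and 0.58, with none past the threshold. Ipsilaterally the log2FC kept its direction under all 16 alternatives, at 5.77 to 7.05 for Ucn2, 3.37 to 4.16 for Calcb and 3.04 to 3.66 for Calca. None of the 16 used a prior count of 2, so the range for Ucn2 does not cover its dependence on that setting. The number of genes past the threshold ipsilaterally (753) was 1639 with DESeq2, 5014 with voom and 1655 with all 22 libraries fitted jointly. It was between 316 (without sham rat 91) and 2186 (without PBBI rat 85) over the 11 fits that left out a library, each more than 1.5 times from 753. Contralaterally the number (0) was 3 with DESeq2, 1 with voom and between 0 and 1 without a library, with 1 only without PBBI rat 96. With the rat as a block, which pairs its hemispheres, the ipsilateral over contralateral log2FC within PBBI was 5.32 for Ucn2 (5.23 without the block), 3.61 for Calcb (3.84) and 2.88 for Calca (2.99). Within sham it was 0.21 for Calcb (0.30 without the block). The voom, joint-fit and minimum-count alternatives for the gene counts, all alternatives for Calca, the use of the permutation test with a prior count of 2 as an alternative for Calcb, the folds without single rats, the 6-count floor and the peptide counts without the members were chosen after seeing the data.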
